A study of Drosophila melanogaster with 4 samples.

Results

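The DREF peaks described here are those that lay in Uextra, the part of the Drosophila melanogaster Release 5 assembly in which scaffolds without a chromosomal place are joined end to end. They were chosen by sequence name alone: 303 of the 1937 peaks listed for total cells and 169 of the 1113 peaks listed for mitotic cells carried the name Uextra. Chromatin was immunoprecipitated with a rabbit polyclonal antibody to DREF from Kc167 cells, an established embryonic line kept in serum-free medium, and the DNA was sequenced. The labels name 2 libraries called total and 2 called mitosis, all from the same line with the same antibody, and they give no genotype, treatment or time that separates the groups. The sources used here do not say how the mitotic cells were collected or how pure they were. Each condition was deposited as 1 peak list without values per library, so no difference between conditions could be tested against replicate spread. The comparisons below are therefore descriptions, and their 95% intervals (exact binomial for shares, order statistics for medians) cover counting error and the spread over peaks. Neighbouring peaks are not independent, which makes these intervals too narrow.

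DREF is a zinc finger protein that binds a short palindromic sequence, the DNA replication-related element, in front of many genes for DNA synthesis and cell growth. Its sites often coincide with those of the insulator protein BEAF-32, and the submitters list DREF among the insulator proteins. Much of the unplaced sequence of the fly genome comes from heterochromatin, which is rich in satellites and transposable elements, and a scaffold may also be a second copy of sequence that is placed elsewhere. Distances within Uextra hold within a scaffold but have no meaning across a join, and the scaffold borders were not analysed here. No genome of Release 5 was used, so no base sequence, motif or gene is given for these peaks.

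Uextra contributed 15.6% of the total list, covering 349.8 kb, and 15.2% of the mitotic list, covering 162.3 kb. By the authors' deposited peak score, an unlabelled number used here to rank peaks within a list, Uextra peaks of the total list were much like those on 2L, 3L, 3R and X. Their median total score was 5.69 (5.43 to 5.98), against 5.67 (5.52 to 5.81) for the 1255 peaks of the 4 arms. In the mitotic list the Uextra median was 9.7 (9.14 to 10.29) and that of the 735 arm peaks 10.47 (10.28 to 10.85). Few of the very strongest sites lay in Uextra: it held 3 of the 50 highest total scores and 4 of the 50 highest mitotic scores. This did not extend to strong peaks at large. Total scores of 8.35 or more were found in 70 Uextra peaks (23.1%) and 264 arm peaks (21.0%). At the low end, 7 of the 169 Uextra mitotic peaks scored below 4.95, as did 9 of all 1113 mitotic peaks. That limit is the lowest mitotic score on the 4 arms. No arm peak could fall below it, so the count is no comparison with the arms. Of the 7 peaks, 6 lay in the last 1-Mb bin of Uextra, which is described below.

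The peaks were spread very unevenly along Uextra. In its first 28 bins of 1 Mb, the total list had between 1 and 20 peaks per bin, with a median of 6. The last bin, which begins at 28000001 and whose last peak ends at 29003847, had 100. On the 4 arms the 99 bins had between 1 and 29 total peaks, with a median of 12. The mitotic list, of whose 169 Uextra peaks 160 overlapped a total peak and which is therefore no separate observation, was also uneven, with 0 to 15 peaks in each of the first 28 bins (median 2.5), 76 in the last bin and 0 to 19 in the bins of the arms (median 7). The last bin therefore held more than 3 times as many total peaks as the densest bin of those arms, while a typical bin elsewhere in Uextra was sparser than one on an arm. Within the last bin the peaks lay mostly toward the end: the 400 kb from 28000001 to 28400000 held 17 total peaks, and the 600 kb from 28400001 to 29000000 held 83. This division of Uextra into the first 28 bins and the last was made after the counts were seen.

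**Figure D1:**
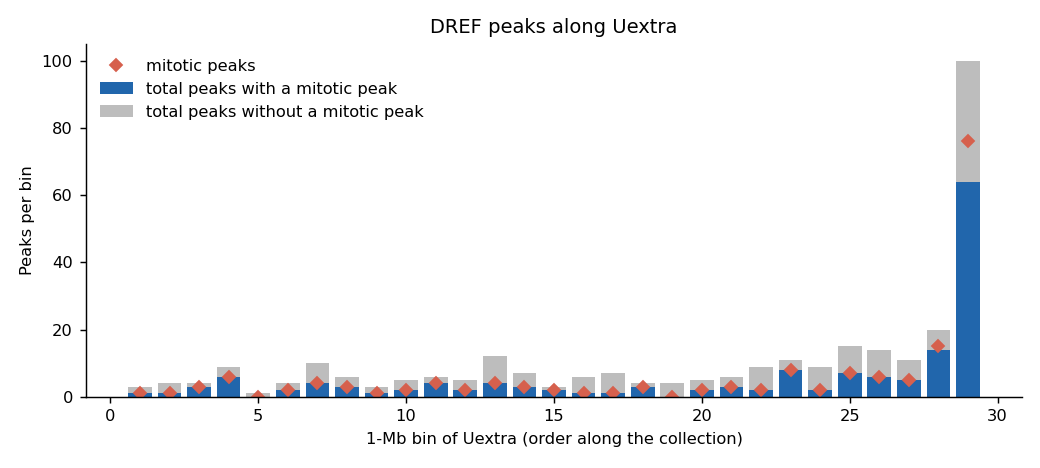
Number of DREF peaks in each 1-Mb bin of Uextra, in order along the collection. Bars are total peaks, split into those that overlap a mitotic peak and those that do not, and diamonds are mitotic peaks. The last bin holds 100 total and 76 mitotic peaks, and no earlier bin holds more than 20 total or 15 mitotic peaks.

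Uextra peaks differed from arm peaks in the range of their widths more than in the median. The median width was 1015 bp (994 to 1042) for Uextra total peaks and 1006 bp (999 to 1012) for arm total peaks. The interquartile range was 350 bp in Uextra and 144 bp on the arms. Both tails contributed. Of the Uextra total peaks 19 were wider than 2 kb, or 6.27% (3.82 to 9.62%), against 12 of 1255 on the arms, or 0.956% (0.495 to 1.66%), and 1.76% of all total peaks. At the other end, 18 Uextra total peaks were narrower than 700 bp, or 5.94%, against 2 on the arms, or 0.159%, and 1.34% of all total peaks. In the mitotic list 8 Uextra peaks and 2 arm peaks exceeded 2 kb, with 0.898% of the whole list above that limit, and 40 Uextra peaks (23.7%) and 63 arm peaks (8.57%) were narrower than 700 bp, as were 11.5% of all mitotic peaks. The wide and the narrow peaks were distributed differently. Of the 19 wide total peaks 18 lay in the last bin, all of them in its last 600 kb, and all 8 wide mitotic peaks lay in the last bin. The narrow total peaks numbered 10 in the first 28 bins and 8 in the last.

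The broad peaks of Uextra were low. The widest peak of the total list, at 28998856 to 29003847, spanned 4992 bp with a score of 4.37 and had no mitotic peak. The second, at 28939971 to 28944158, spanned 4188 bp with a score of 4.31 and also had none. The third, at 28751832 to 28755857, spanned 4026 bp with a total score of 4.4, and its mitotic peak spanned 3846 bp with a score of 5.81. Across the 19 wide total peaks the score ran from 3.46 to 9.65, with a median of 4.67, below the median of 5.75 of the other 284 Uextra total peaks. The widest mitotic peak, at 28815177 to 28819029, spanned 3853 bp with a score of 6.81, inside a total peak of 3866 bp with a score of 5.67. The 12 arm total peaks wider than 2 kb had a median score of 4.7, with a range of 1.8 to 19.86, against a median of 5.69 for the other arm peaks. Among single arms only 3L had a low median for its broad peaks, 3.09 over 4 peaks against 5.41 for its others. On 2L it was 6.88 over 3 peaks against 5.81, and on 3R 6.675 over 4 peaks against 5.72. The 1 broad peak of X scored 6.07, against a median of 5.81. Over the whole range of widths, wider arm peaks tended to have higher scores, with a Spearman rho of 0.43 over 1255 total peaks and 0.44 over 735 mitotic peaks. Single arms ran from 0.28 on 2L to 0.47 on 3R in the total list, and from 0.37 on 3L to 0.50 on X in the mitotic list. In the first 28 bins of Uextra rho was 0.24 over 203 total peaks, near that of 2L, and 0.20 over 93 mitotic peaks. In the last bin it was −0.14 over 100 total peaks and −0.27 over 76 mitotic peaks. These coefficients are descriptions across peaks called on shared libraries.

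Many Uextra peaks had close neighbours, most of them in the last bin. A peak was called clustered when another peak of its list lay less than 2 kb away, edge to edge, which held for 10.2% of all total peaks and 7.46% of all mitotic peaks. In Uextra 51 of 303 total peaks were clustered, or 16.8% (12.8 to 21.5%), against 117 of 1255 on the arms, or 9.32% (7.77 to 11.1%). The last bin had 45 of these 51. Without it the Uextra share was 2.96% (1.09 to 6.32%), and the shares of the 4 arms ran from 6.51% on 2L to 12.8% on X. The last bin was set apart after its high peak count was seen, and the arms kept their densest bins. The lower share in the rest of Uextra is therefore no like comparison with the arms. In the mitotic list 36 of 169 Uextra peaks were clustered (21.3%), against 41 of 735 on the arms (5.58%), and 34 of the 36 lay in the last bin. The 51 total peaks formed 23 clusters, of which 20 were pairs. No cluster of total peaks on the 4 arms had more than 3 members, whereas 2 in Uextra had 4.

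The cluster of 4 with the higher summed score ran from 28879531 to 28888209. Its members scored 8.23, 10.43, 5.65 and 4.33 in the total list, and the third, from 28883138 to 28885138, had no mitotic peak. The other cluster of 4 ran from 28842750 to 28847860, with total scores of 10.42, 6.24, 5.24 and 5.64, and the last of them, from 28847074 to 28847860, had no mitotic peak. The cluster of 3 ran from 28601605 to 28605955, with total scores of 4.89, 5.63 and 5.51, and its mitotic peaks scored 8.14, 5.66 and 5.6. All members of that cluster were found in both lists.

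The next question was how often a Uextra site of total cells was also listed in mitotic cells. An overlap of 1 bp or more with the opposite list made a peak shared, which held for 56.1% of all total peaks. In Uextra 156 of 303 total peaks were shared, or 51.5% (45.7 to 57.2%), and on the 4 arms 727 of 1255, or 57.9% (55.1 to 60.7%). Single arms ran from 52.2% on 3L to 61.5% on X, so Uextra was just below the lowest arm, whose share lay inside the Uextra interval. The share inside Uextra was not uniform: it was 92 of 203 in the first 28 bins, or 45.3% (38.3 to 52.4%), and 64 of 100 in the last bin, or 64.0% (53.8 to 73.4%).

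When peaks of like score were compared, the first 28 bins of Uextra had lower shares than the arms in all but the strongest class. The total list was cut by score into 5 classes of equal size, from class 1 (weakest) to class 5 (strongest). In class 3, with scores of 5.07 to 6.16, 129 of 240 arm peaks were shared, or 53.8% (47.2 to 60.2%). The first 28 bins of Uextra had 12 of 54 shared in that class, or 22.2% (12.04 to 35.6%), and the last bin 9 of 16, or 56.3% (29.9 to 80.2%). In class 4, up to a score of 8.33, the shares were 92.6% on the arms (237 of 256), 76.5% in the first 28 bins (26 of 34) and 87.5% in the last bin (14 of 16). In class 1 they were 11.4% on the arms (27 of 236), 5.41% in the first 28 bins (2 of 37) and 29.2% in the last bin (7 of 24). In class 2 they were 27.0% (70 of 259), 18.8% (6 of 32) and 50% (10 of 20). In classes 1, 2 and 4 the intervals of the first 28 bins overlapped those of the arms. For the first 28 bins they were 0.661 to 18.2%, 7.21 to 36.4% and 58.8 to 89.3%. For the arms they were 7.68 to 16.2%, 21.7 to 32.9% and 88.7 to 95.5%. On 2L alone the class 1 share was 2.86% (1 of 35), below that of the first 28 bins. In class 5 all 70 Uextra peaks were shared, as were all 264 of the arms. With the arm shares weighted to the scores of Uextra, the Uextra share minus the arm share was −6.25 percentage points (−12.04 to −0.499). The limits here carry the counting error of the Uextra share and take the arm shares as fixed, so they are too narrow for a difference. The first 28 bins gave −13.5 points (−20.5 to −6.37), and the last bin gave 8.44 points (−1.78 to 17.8).

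**Figure D2:**
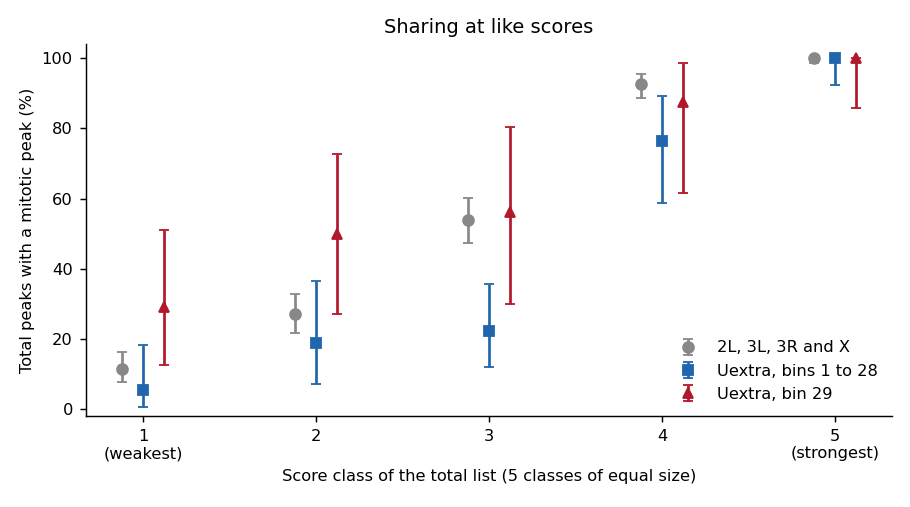
Percentage of total peaks that overlap a mitotic peak, by score class of the total list (5 classes of equal size), with exact 95% binomial intervals. Grey circles are 2L, 3L, 3R and X together, blue squares Uextra bins 1 to 28 and red triangles Uextra bin 29. In class 3 the blue square is at 22.2%, the grey circle at 53.8% and the red triangle at 56.3%.

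Shared and unshared Uextra total peaks overlapped in score between 3.03 and 7.37. The strongest total peak without a mitotic peak lay at 3876500 to 3877505 with a score of 7.37. It was followed by those at 15758160 to 15759025, with 7.31, and at 28250398 to 28251245, with 7.06. All 90 Uextra total peaks above 7.37 were shared. The weakest shared total peaks were all in the last bin. They lay at 28956549 to 28957641 (total score 3.03, mitotic score 5.4), at 28498095 to 28499580 (3.3 and 6.37) and at 28701222 to 28702687 (3.52 and 5.95). In the first 28 bins no total peak below 3.76 was shared.

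Paired Uextra sites had lower mitotic scores for their total scores than paired arm sites. The lists have no stated common scale, so a ratio has no meaning by itself and is set here against the same ratio elsewhere. Over 160 Uextra pairs the mitotic-to-total ratio had a median of 1.28 (1.22 to 1.33), and over 728 arm pairs one of 1.49 (1.48 to 1.51). The arms were closely alike, with medians from 1.486 on 3R to 1.499 on X. Both parts of Uextra were below that range, with 1.31 (1.21 to 1.40) over 92 pairs in the first 28 bins and 1.24 (1.20 to 1.32) over 68 pairs in the last. The median was lower in Uextra in each of the 5 score classes, but in classes 1 and 3 the Uextra interval held the arm median. In score class 5 the median was 1.24 in Uextra (1.17 to 1.34, 72 pairs) and 1.52 on the arms (265 pairs). In class 3 it was 1.27 in Uextra (1.15 to 1.58, 21 pairs) and 1.46 on the arms (129 pairs). In class 1 it was 1.53 in Uextra (1.26 to 1.78, 9 pairs) and 1.64 on the arms (27 pairs). A weak total peak enters a pair only where a mitotic peak was listed, so the weak classes hold selected sites. Uextra ratios were also more scattered, with an SD of log2 ratios of 0.34 against 0.21 on the arms. The mitotic score was below the total score in 14 of 160 Uextra pairs, or 8.75% (4.87 to 14.2%), and in 7 of 728 arm pairs, or 0.962% (0.387 to 1.97%), with 2.11% over all pairs. Ratios above 2 were found in 4 Uextra pairs (2.5%) and 15 arm pairs (2.06%), near the 2.01% of all pairs.

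**Figure D3:**
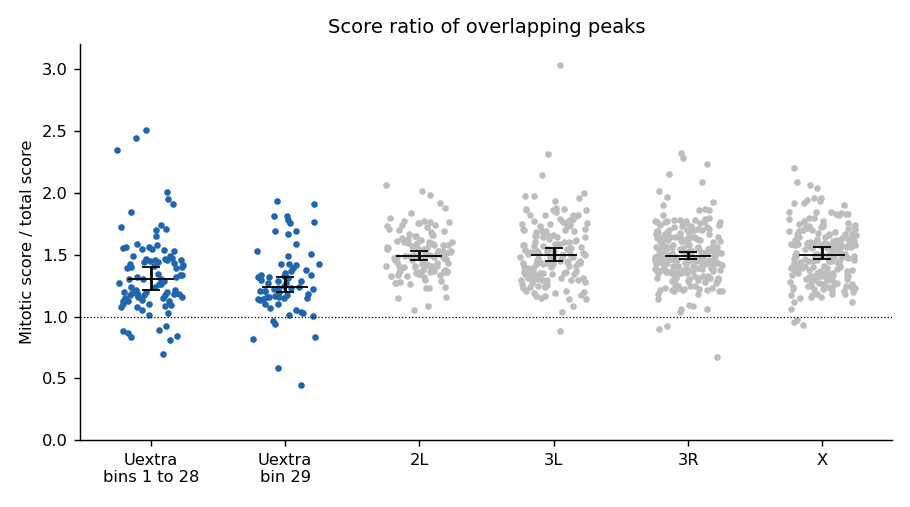
Ratio of mitotic to total score for each overlapping pair of peaks, by sequence, with the median and its 95% order-statistic interval (black). The dotted line marks equal scores. The Uextra medians of 1.31 and 1.24 lie below the arm medians of 1.486 to 1.499, and Uextra has points on both sides of most arm values.

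The highest ratios in Uextra included those of strong sites. The peak at 8791474 to 8793170 had a total score of 19.8 and a mitotic score of 46.46, a ratio of 2.35, and the latter is the highest score of the mitotic list. The highest ratio in Uextra, 2.51, belonged to the peak at 19603521 to 19604569, with scores of 12.69 and 31.8. The peak at 6805966 to 6807136 had scores of 7.82 and 19.11, a ratio of 2.44. All of these lay in the first 28 bins. By contrast, the strongest total peak of Uextra, at 28635874 to 28637193 in the last bin, went from 21.69 to 25.62, a ratio of 1.18. The peak at 7038956 to 7040201, the third by total score in Uextra, had scores of 15.32 and 26.66, a ratio of 1.74, over a mitotic peak of 644 bp inside a total peak of 1246 bp. The lowest ratio in a total peak with a single mitotic peak was 0.694, at 27973617 to 27974453, with scores of 9.16 and 6.36.

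In a few places 1 total peak in Uextra corresponded to 2 mitotic peaks. This was seen at 4 of the 156 shared total peaks of Uextra, all in the last bin. It was seen at 1 of 727 on the 4 arms and at 5 of 1087 over all sequences. The 4 total peaks in Uextra were broad, with widths of 2390, 3662, 1822 and 3083 bp. The total peak at 28461406 to 28463795 scored 9.65, and its mitotic peaks scored 11.65 (28461512 to 28462250) and 4.31 (28462427 to 28463794). The total peak at 28756358 to 28758179 scored 6.51, over mitotic peaks of 9.26 and 3.79. The weaker mitotic peaks of these sites gave the lowest ratios of all Uextra pairs, 0.447 and 0.582. The other such sites lay at 28652390 to 28656051, with a total score of 4.78 over mitotic scores of 6.15 and 6.58, and at 28918307 to 28921389, with 8.78 over 10.14 and 14.84. With the pairs at these 4 sites left out, the median ratio of the remaining 152 Uextra pairs was again 1.28.

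The mitotic list also had 9 Uextra peaks without a total peak, or 5.33% of its Uextra peaks (2.46 to 9.87%), where 7 of 735 arm peaks, or 0.952% (0.384 to 1.95%), and 1.89% of all mitotic peaks had none. Of these 9, 8 lay in the last bin, and without that bin the share was 1.08% (0.0272 to 5.85%). The remaining peak, at 27989974 to 27990929, ended close to the start of the last bin and had the highest score of the 9, 11.42. Those from 28586986 to 28587861 and from 28341745 to 28342217 scored 9.88 and 9.52, and the peak at 28952884 to 28953497 scored 8.64. The other 5 scored between 3.55 and 6.24. They lay at 28342332 to 28343200 (6.24), 28905303 to 28906081 (5.27), 28983792 to 28985036 (5.15), 28895711 to 28898189 (4.43) and 28985538 to 28986303 (3.55). Several adjoined each other: 28341745 to 28342217 and 28342332 to 28343200 were close neighbours, and so were 28983792 to 28985036 and 28985538 to 28986303. The width of the 9 peaks ran from 473 to 2479 bp, and the nearest total peak was between 990 and 13783 bp away in the joined sequence.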

How the data were processed

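DREF ChIP-seq peaks of Kc167 cells were analysed as the authors deposited them, 1 list for total and 1 for mitotic cells, each standing for 2 libraries. Per the submitters' processing notes, alignment used Bowtie 0.12.5. The sources used here do not give the build, the peak caller or its threshold, or the treatment of pooled libraries, duplicates and reads with several matches. How reads with several matches are placed can change peak height and width in repeated sequence. Each deposited row gives the position of a peak, with sequence names as in Release 5, and an unlabelled score. Starts are printed counted from 1, and width is end minus start as deposited. The lists hold no read counts, so depth is unknown.

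Uextra was compared with 2L, 3L, 3R and X, whose choice was fixed by the rule that defined the peaks. Overlap was at least 1 bp, and neighbours were closer than 2 kb. Shares carry exact Clopper-Pearson and medians exact order-statistic 95% intervals. No test was run, because each condition has 1 list. The functions were tested on simulated data. Peaks named were the 3 highest or lowest of each class by score, width, ratio and cluster size, every mitotic peak without a total peak, and, added after their values were seen, the total peaks that span 2 mitotic peaks. Peaks, classes and comparisons were chosen with earlier results of these data known. Alternatives varied the overlap, list strictness, neighbour limit, score bands and peaks included. The tools were Python 3.11.15, matplotlib 3.10.9, scipy 1.17.1, pandas 2.3.3 and numpy 2.4.6.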

Additional observations from a re-analysis of the deposited data

How the results depend on the processing

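Of 55 alternative values, 41 stayed within the 95% interval of the reported value and 14 moved outside it, and the difference in sharing at like scores kept its sign in each. Requiring 50% of the narrower peak or the midpoint of the mitotic peak for overlap could not change the sharing or ratios of Uextra. In all 160 Uextra pairs, and in 727 of 728 arm pairs, the mitotic peak lay wholly inside its total peak. These unchanged values are among the 41 and are no sign of stability. In the stronger 50% of each list 45.0% of Uextra total peaks were shared (61.2% on the arms), 1.37% of mitotic peaks stood alone, the median ratio was 1.39 (1.55 on the arms), median scores were 7.91 and 12.8, 10.0% of total peaks were clustered, and the difference at like scores was −15.3 points. Raising scores follows from that selection itself. The cut also makes a strong total peak count as unshared when its mitotic peak lies in the weaker 50%. In the full lists 40 of 50 Uextra total peaks of class 4 and all 70 of class 5 were shared. The 45.0% and the −15.3 points therefore cannot be set beside the values of the full lists. The same holds for the other values of this setting. Only 72 Uextra pairs remained, each with a mitotic score in the stronger 50%, and weak neighbours and weak standing-alone peaks were removed. Without the last bin of Uextra, an alternative added after seeing the data, 45.3% were shared, 1.08% stood alone and 2.96% were clustered. The median mitotic score was then 10.8 (10.47 on the arms), and the difference at like scores was −13.5 points. The bin left out was the part with a positive difference, 8.44 points (−1.78 to 17.8), so the kept sign is no sign of stability here. Neighbour limits of 1 and 5 kb gave clustered shares of 11.6% and 28.4% (4.30% and 20.6% on the arms). Merging neighbours, also added later, kept all 8 of its values within the intervals. No paired analysis was possible because the deposited lists carry no values of single libraries, and no library could be left out for the same reason. Depth is unknown, so a site missing from a list may lie below its detection limit.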

Other observations

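The borders of paired peaks differed between the parts of Uextra. No mitotic peak of the 160 Uextra pairs reached beyond its total peak, and on the arms the same was true of 727 of 728 pairs. In the first 28 bins the mitotic peak started a median of 33.0 bp after the total peak and ended 108.0 bp before it (92 pairs). In the last bin the order was the opposite, with 90.0 bp at the start and 42.5 bp at the end (68 pairs). On the 4 arms both offsets were alike, 64.0 and 62.0 bp (728 pairs). In the last bin 60 of the 68 pairs had a total peak with a single mitotic peak. This held for all 92 pairs of the first 28 bins and for 726 of the 728 arm pairs. The offsets were not taken over single pairs alone, so the part that split peaks had in the order is unknown. Starts were identical in 17 of 92, 12 of 68 and 98 of 728 pairs, and in 14.1% of all pairs. Ends were identical in 8, 12 and 98 of them, and in 13.5% of all pairs. The lists give no strand, and these differences were not tested.

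Among the 20 widest peaks of the total list 15 lay in Uextra, 14 of them in its last bin. Among the 20 widest of the mitotic list 10 lay in Uextra, 9 of them in the last bin. Uextra made up 15.6% of the total list and 15.2% of the mitotic list. Among the 20 peaks of highest score Uextra held 2 in each list.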
